A study of Homo sapiens with 4 samples.

Results

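CTCF sites in acetylation deserts are CTCF peaks of DU145 cells that lie far from any acetylated region. They were chosen by 1 rule: the summit of a CTCF peak on chromosomes 1 to 22 had to be more than 100 kb from the nearest edge of any peak of histone H3 acetylated at lysine 27 (H3K27ac). The rule found 7394 sites among 34750 autosomal CTCF peaks, of 36152 CTCF peaks in all. DU145 is an established human cell line from a brain metastasis of prostate cancer. The series holds 4 libraries, namely a CTCF and an H3K27ac pull-down of DU145 chromatin and the input chromatin of DU145 and of LNCaP, another metastatic prostate cancer line. The labels name no treatment, and cells of all libraries were fixed with formaldehyde. Only the CTCF and the H3K27ac library have a peak list here, each made from 1 library, so replicate errors cannot be given and conditions could not be tested against each other. Peaks of 1 library are not replicates. Differences between sets of peaks are therefore given as descriptions, and the intervals beside them are 95% intervals that cover counting error only.

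CTCF is a zinc finger protein that binds a long DNA motif, stops the movement of cohesin along chromatin and so sets the anchors of chromatin loops and the borders of many domains. H3K27ac is placed by the acetyltransferases p300 and CBP at active promoters and enhancers, and long stretches without it are typical of gene-poor or silent chromatin. CTCF binding does not require an active promoter or enhancer, and sites outside active chromatin are known in many cell types. The distances were measured on hg19, the build of the files, and no gene annotation or genome sequence of that build was used here. Where a well-known gene cluster is named below, the name comes from general knowledge of the map and not from the files.

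Deserts covered much of the autosomes but held fewer CTCF sites for their length. A desert is here an interval without an H3K27ac peak that is long enough to hold positions more than 100 kb from acetylation, and its interior is the part beyond that distance. There were 2484 deserts, and their interiors added up to 1431 Mb, 49.7% of the autosomal span between the first base and the outermost peak of each chromosome. The interiors held 21.3% of the autosomal CTCF sites (Wilson 95% interval 20.9 to 21.7), a share that the rule itself sets. This came to 5.17 sites per Mb of interior against 18.9 per Mb elsewhere, a ratio of 3.65. Stretches of the assembly without sequence count toward these lengths. In 29 deserts some stretch of more than 3 Mb had no CTCF summit, and without those 29 the density was 6.08 sites per Mb. Those deserts were left out for their lack of CTCF, which by itself raises the density.

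The density of CTCF sites continued to differ with distance inside the deserts. Between 100 and 200 kb from acetylation there were 10.2 sites per Mb (n = 3400), and between 200 and 500 kb there were 6.42 (n = 2689). From 500 to 1000 kb the density was 3.14 per Mb (n = 895), and beyond 1000 kb it was 1.04 (n = 410). The last class includes stretches without sequence, which lower its density. Only in deserts with acetylation on both sides, it was 1.29 (n = 403). On the near side of the threshold, positions 50 to 100 kb from acetylation held 12.7 sites per Mb, so the limit of 100 kb marks no step. The median site lay 217 kb from H3K27ac (quartiles 142 and 390 kb), and 100 sites lay more than 2000 kb away. In the first 1 kb beyond the limit lay 53 sites, with a median fold enrichment of 10.8, and in the last 1 kb before it 54 sites, with a median of 10.0. The members closest to the limit had summits at chromosome 12, 22596538 (100.033 kb, fold 7.77), chromosome 7, 35633716 (100.045 kb, fold 18.7), and chromosome 7, 107103753 (100.048 kb, fold 10.8). The nearest sites left out were at chromosome 3, 127192270 (99.986 kb, fold 11.5), chromosome 1, 9070275 (99.974 kb, fold 8.62), and chromosome 22, 28416171 (99.942 kb, fold 18.3).

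Sites in deserts were weaker than the other autosomal CTCF sites. Fold enrichment is the authors' own value per peak. It sets a scaled count of fragments under the summit against what the surroundings predict, with a constant added to both. Over the 7394 desert sites it ranged from 1.52 to 39.0 with a median of 8.57 (interval 8.37 to 8.62). The 27356 other autosomal sites had a median of 10.1 (interval 10.0 to 10.3) and a range of 1.55 to 57.0. No desert site exceeded 39.0, while the other sites reached 57.0, and the medians differed on each of the 22 autosomes in the same direction. The strongest sites were scarcer in deserts: 341 of the 7394 (4.61%) exceeded a fold of 20.1, the 90th percentile of autosomal CTCF peaks, which 9.93% of all autosomal peaks exceeded. The authors' −log10 q was at least 10 in 5594 desert sites, 75.7% (interval 74.7 to 76.6), against 80.5% of all autosomal CTCF peaks. By deciles of fold enrichment, the share of sites that lay in deserts was 23.2% in the weakest decile, highest in the next at 27.6%, and 9.93% in the strongest (interval 8.98 to 10.97).

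Among sites outside H3K27ac peaks, the median fold enrichment was lower the farther a site lay from acetylation. It was 9.09 at 100 to 200 kb (interval 8.90 to 9.31), 8.59 at 200 to 500 kb, 7.47 at 500 to 1000 kb and 6.90 beyond 1000 kb (interval 6.61 to 7.47). Sites within 10 kb of an H3K27ac peak but outside it had a median of 10.96. Sites inside an H3K27ac peak (n = 2960) did not follow this order. Their median was 8.88 (interval 8.52 to 9.14), below that of the desert sites at 100 to 200 kb. On each of the 20 chromosomes with 10 or more sites beyond 500 kb, their median was below that of the sites at 100 to 200 kb. On chromosome 19, which had 9 sites beyond 500 kb, the order was the opposite, with 12.6 against 9.93.

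Local background is the fragments expected at a summit, on the scaled count, as solved from the authors' fold and −log10 p. It moved with distance as well. Its median was 2.77 fragments at desert sites and 3.00 at the others, and 37.6% of desert sites had the lowest background in the list, 2.18 fragments, against 29.4% of all autosomal CTCF peaks. Beyond 1000 kb this share was 54.1%. The value of 2.18 fragments is shared by many peaks, and whether input was lower still at some of them was not measured. The sets were also compared, after the data were seen, within the peaks at that lowest background, where fold enrichment depends only on fragments at the summit. There the 2781 desert sites had a median fold of 8.62 (29 fragments) and the 7429 others 10.9 (37 fragments). The order by distance was also present in these peaks, from 9.76 at 100 to 200 kb to 6.90 beyond 1000 kb. The part of local background in these differences was not tested.

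**Figure D1:**
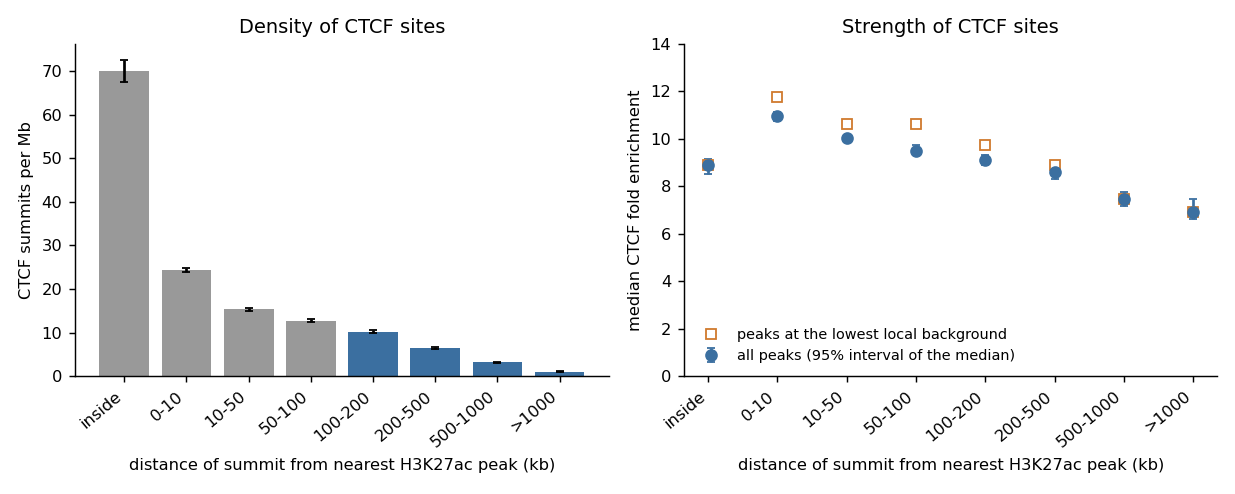
Left, CTCF summits per Mb of autosome by distance from the nearest H3K27ac peak (kb), with 95% Poisson intervals; blue bars are desert sites and grey bars are sites nearer than 100 kb or inside a peak. Right, median CTCF fold enrichment in the same classes for all peaks (circles, 95% interval of the median) and for peaks at the lowest local background (squares). Density goes from 10.2 to 1.04 summits per Mb and the median fold of all peaks from 9.09 to 6.90 across the 4 desert classes.

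Peaks in deserts were also narrower. Their median width was 260 bases (quartiles 210 and 326, range 154 to 1651) against 284 bases for the others (quartiles 228 and 360), and the median was lower on all 22 autosomes. Of the desert peaks 474 were wider than 500 bases, 6.41% against 8.84% of all autosomal CTCF peaks. The depth behind a site differed in the same direction, with a median of 38 fragments at desert summits (range 10 to 236) and 48 at the others. Width follows the height of a peak in peak calling, and how much of the width difference goes with fold enrichment was not tested.

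The 10 strongest desert sites had fold enrichments from 31.6 to 39.0. The first, at chromosome 14, 76853478 to 76854097, had a fold of 39.0 from 135 fragments (exact Poisson interval 113 to 160). It was the only CTCF site in the short interior of a desert of 232 kb, and its nearest CTCF neighbour was 34.4 kb away. Next came chromosome 17, 32526754 to 32527431, with a fold of 38.4 from 133 fragments, in a desert of 920 kb with 11 sites. The third, at chromosome 6, 148256 to 149113, had a fold of 37.5 and lay close to the tip of the short arm, in a desert that held 5 sites. The site at chromosome 6, 73121898 to 73122251, had a fold of 33.5 and its nearest CTCF neighbour was 168 kb away. By contrast, the site at chromosome 1, 181393780 to 181394483, with a fold of 32.4, had a neighbour at 1.26 kb. All 10 lay between 112 and 283 kb from acetylation, although 17.6% of desert sites lay more than 500 kb away.

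Most deserts with CTCF held several sites. Of the 2484 deserts, 1701 (68.5%) had at least 1 site in the interior and 783 had none. Most of these 783 had CTCF nearer to their edges, since only 93 deserts had no CTCF summit anywhere. Deserts without interior sites had a median length of 244 kb, against 514 kb for those with sites. As the rule takes 100 kb off each acetylated edge, most of the former had little interior. The holding deserts had a median of 3 sites (mean 4.35, highest 50). A single site was found in 416 of them, 2 sites in 301 and 3 sites in 221. At the other end, 143 deserts held 10 to 19 sites and 14 held 20 or more. Those 157 deserts had 1782 and 367 sites, 24.1% and 4.96% of the total. The most populated 353 deserts held 50% of all desert sites. Sites in deserts with 1 site had a median fold of 8.48 (interval 8.03 to 8.90) and those in deserts with 10 or more had 8.33 (interval 8.04 to 8.62), so these intervals overlapped.

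Longer deserts held more sites in number but fewer per Mb. The number goes partly with the rule, which leaves short deserts little interior. With acetylation on both sides, deserts of 200 to 300 kb had 39.2 Mb of interior in all. Those of 500 to 1000 kb had 228 Mb. Among deserts with acetylation on both sides, 34.9% of the 895 that were 200 to 300 kb long held a site, as did 92.4% of the 462 between 500 and 1000 kb and 98.7% of the 150 between 2000 and 5000 kb. The density in the interior was 12.0 sites per Mb in the shortest of these classes, 8.53 between 500 and 1000 kb and 3.20 between 2000 and 5000 kb. In the 28 deserts longer than 5000 kb it was 1.54, and the longest of these, at 21.1 Mb, spans a centromere. Median fold enrichments in the same order were 9.48, 8.79, 7.76 and 7.47. Median backgrounds were 3.00, 3.00, 2.42 and 2.18 fragments, the last being the lowest level.

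**Figure D2:**
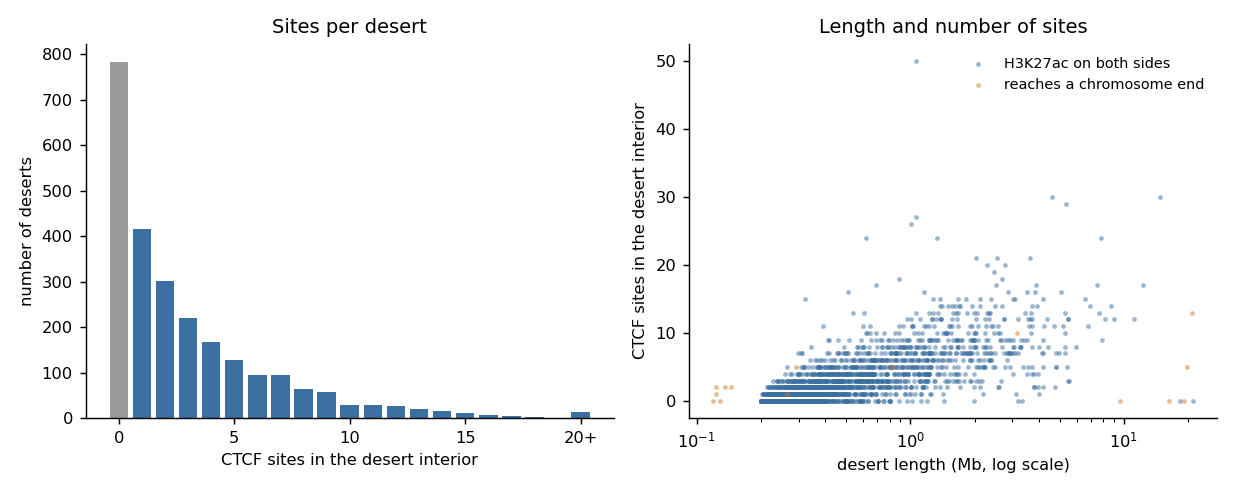
Left, number of deserts (vertical axis) by the number of CTCF sites in their interior, with 20 and more in the last bar; 783 deserts had 0 and 416 had 1. Right, each point is a desert, with its length in Mb on a log scale and its CTCF sites, blue where H3K27ac bounds both sides and orange where the desert reaches a chromosome end; the point at 50 sites is a desert of 1.07 Mb.

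Neighbouring desert sites were farther apart than CTCF sites in general, and fewer of them had a close neighbour. The median distance between neighbouring sites of the same desert was 54.2 kb (interval 51.3 to 57.6, quartiles 16.3 and 150 kb, n = 5693 pairs). Over all autosomal neighbours it was 34.7 kb (quartiles 11.5 and 86.4 kb). Of the desert pairs, 390 (6.85%) were more than 500 kb apart, against 1.79% of all autosomal pairs. No more than 2 kb separated 256 desert pairs (4.50%), against 5.65% of all autosomal pairs. Counting any CTCF neighbour, 1833 desert sites (24.8%) had one within 10 kb, against 39% of all autosomal CTCF sites, and 495 (6.69%) had one within 2 kb, against 10.8%. Desert sites with a neighbour within 10 kb had a median fold of 8.98 (interval 8.62 to 9.40), and those without had 8.37 (interval 8.22 to 8.59). For the other autosomal sites these medians were 10.6 and 9.82, the same order.

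Desert sites were more frequent toward the desert edges than in the middle. The interior of each desert with acetylation on both sides was divided into 5 equal parts. From the lower to the upper coordinate these held 25.2%, 17.5%, 16.8%, 16.5% and 24.0% of 7348 sites, where an even spread over length would put the same share in each. The contrast was larger in deserts longer than 2 Mb, with 31.0%, 13.7%, 12.2%, 11.9% and 31.2%. Leaving out deserts that have a CTCF-free stretch of more than 3 Mb gave 29.0%, 14.8%, 13.05%, 12.5% and 30.7%. In those remaining long deserts the median fold was 8.04 in each outer part and 6.90 in the middle one. The distance to the nearer edge was on median 0.304 of the desert length (interval 0.299 to 0.309). The rule keeps sites more than 100 kb from the edges, which raises this value most in short deserts.

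Acetylated peaks next to deserts with CTCF sites were somewhat stronger than other acetylated peaks by their median. The 3150 H3K27ac peaks that bound a desert with CTCF sites had a median fold enrichment of 5.47 and a median width of 581.5 bases. The other 45850 autosomal H3K27ac peaks, among them those that bound only deserts without interior sites, had 4.54 and 566 bases. A CTCF peak overlapped 385 of the bounding peaks, 12.2% (interval 11.1 to 13.4), against 10.2% of all autosomal H3K27ac peaks. Over all deserts with acetylation on both sides, also those without interior sites, the first 5 kb from the edge held 23.5 CTCF summits per Mb. Positions between 5 and 20 kb held 14.2 per Mb, and those between 100 and 200 kb held 10.2. A higher density near acetylation was not particular to desert edges. Around all autosomal H3K27ac peaks, positions up to 10 kb away held 24.4 per Mb, and those at 10 to 50 kb held 15.3. Of the bounding peaks 232 stood alone between a pair of deserts with CTCF sites, and 22 of these (9.48%, interval 6.35 to 13.9) overlapped CTCF.

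The share of CTCF sites in deserts differed widely between chromosomes. Chromosome 4 had the highest, 508 of 1500 sites or 33.9% (interval 31.5 to 36.3), followed by chromosome 13 with 220 of 669 (32.9%) and chromosome 18 with 216 of 724 (29.8%). These chromosomes are known to be poor in genes. Chromosome 8 came next with 453 of 1559 (29.1%), and its interval overlapped that of chromosome 18. The lowest shares were on chromosome 19, 70 of 1563 or 4.48% (interval 3.56 to 5.62), chromosome 17, 136 of 1811 (7.51%), and chromosome 22, 75 of 759 (9.88%). Chromosome 2 had the largest number, 688.

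Density inside the deserts had another order. Interiors took 71.0% of the span of chromosome 13, where they held 2.69 sites per Mb. On chromosome 4 they took 62.7% of the span and held 4.24 sites per Mb. On chromosome 17 they took 21.2% and held 7.91 per Mb. The order depends on long stretches without CTCF, such as short arms that the assembly does not resolve. Without deserts that hold a CTCF-free stretch of more than 3 Mb, chromosome 13 had 4.30 sites per Mb and chromosome 4 had 4.58. Chromosome 17 had 9.01 and chromosome 19 had 9.21. Leaving out deserts for their lack of CTCF by itself raises these densities. It also drops populated deserts, such as chromosome 13, 80917095 to 91999866 (12 sites), and chromosome 4, 57845911 to 65765980 (9 sites). The largest change was on chromosome 22, from 3.05 to 8.86 sites per Mb. The median fold of desert sites lay between 7.63 on chromosome 18 and 10.0 on chromosome 19, and that of the other sites between 8.95 on chromosome 4 and 11.6 on chromosome 20.

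**Figure D3:**
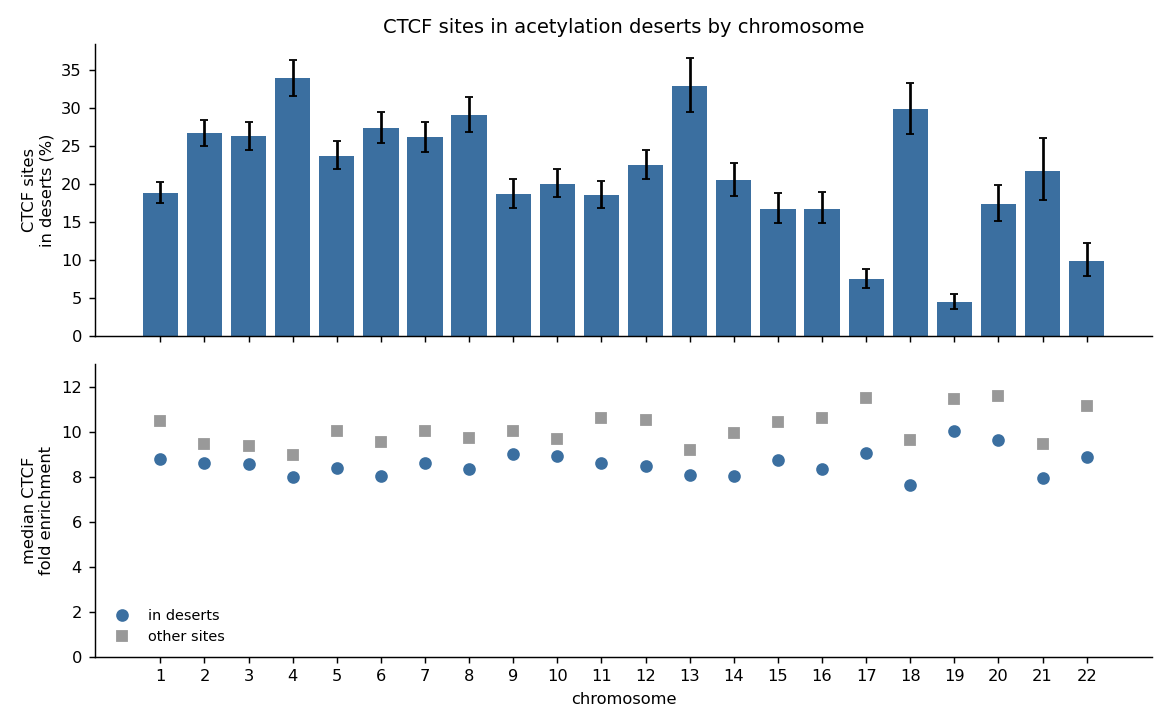
Top, percent of each autosome's CTCF sites that lie in deserts, with Wilson 95% intervals; chromosome 4 is highest at 33.9% and chromosome 19 lowest at 4.48%. Bottom, median CTCF fold enrichment of desert sites (circles) and of the other sites (squares) on each chromosome, with the circle below the square on all 22.

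The longest deserts reached across regions without any CTCF peak. The longest with a site in its interior ran from the start of chromosome 15 to position 20710946 and had 13 sites, all beyond a first stretch of 20.1 Mb without CTCF. A similar interval opened chromosome 14, with 5 sites and a median fold of 3.81. These are the short arms and centromeres of acrocentric chromosomes. Chromosome 16, 31892526 to 46607582, held 30 sites with a median fold of 9.79 (range 3.75 to 23.3), but 11.4 Mb of its 14.7 Mb had none. It includes the centromere. The longest desert of all, chromosome 1, 121485193 to 142619032, also spans a centromere and had 0 interior sites in 21.1 Mb, and so did chromosome 9, 47258917 to 65576615, with 0 in 18.3 Mb.

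Among deserts on chromosome arms, the longest was chromosome 13, 60972840 to 73301031, at 12.3 Mb. Its 17 sites had fold enrichments from 3.90 to 15.5 with a median of 6.04, and a median spacing of 508 kb. The next was on the same chromosome, 80917095 to 91999866 (11.1 Mb, 12 sites, median fold 6.65), with a CTCF-free stretch of 3.88 Mb. Chromosome 4 had long deserts at 130017627 to 138974125 (8.96 Mb, 12 sites, median fold 6.22) and 26863509 to 35022534 (8.16 Mb, 12 sites, median fold 6.23). Chromosome 21, 19192278 to 26979157, was 7.79 Mb long and more populated, with 24 sites, a median fold of 7.73 and no CTCF-free stretch above 940 kb. In chromosome 16, 58781071 to 66410853, 13 sites had a median fold of 5.47, yet the highest reached 31.4. The desert at chromosome 11, 36532224 to 43333491, had 11 sites with a higher median, 10.0 (range 4.61 to 28.1).

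The sites farthest from acetylation were all on chromosome 13. The summit at 67812660 lay 5.49 Mb from the nearest H3K27ac peak, with a fold of 7.19 from 24 fragments (exact Poisson interval 15.4 to 35.7), and no other CTCF site within 1066 kb. In the desert of 11.1 Mb, the summits at 86402412 and 86380887 lay 5.49 and 5.46 Mb away. Those were 21.5 kb apart, with folds of 8.90 and 6.90. The other sites among the 5 farthest had folds of 4.32 and 5.47, from 14 and 18 fragments. Such numbers limit how well these sites can be ranked.

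**Figure D4:**
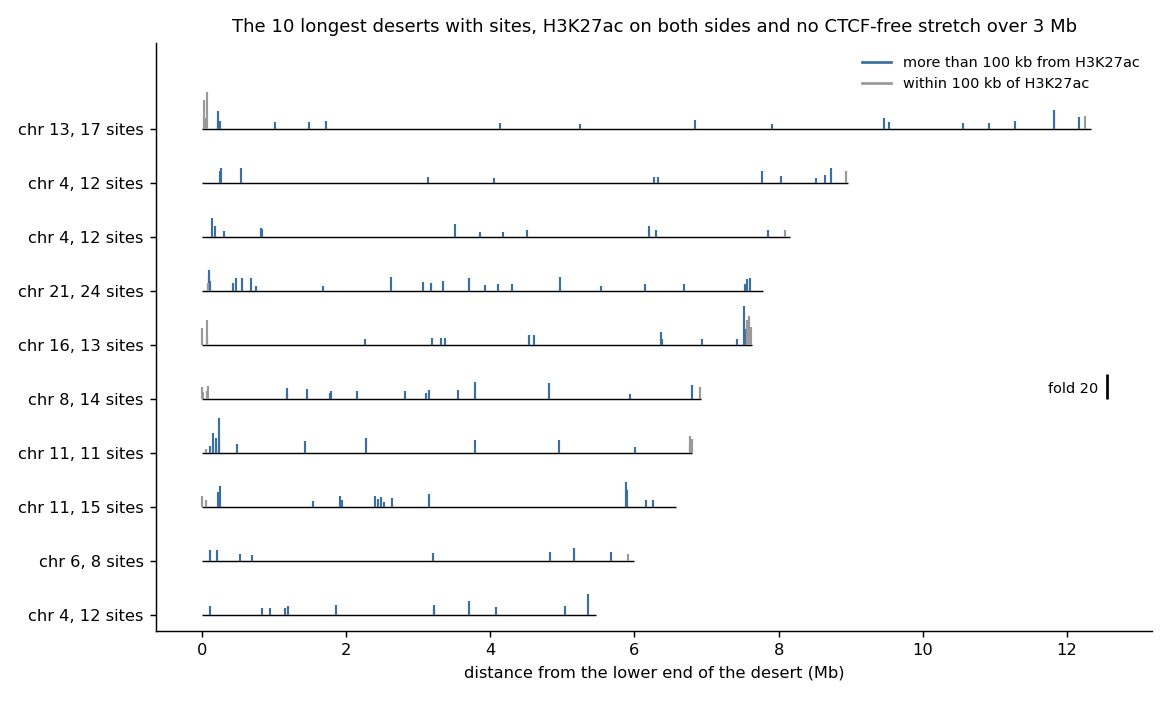
The 10 longest deserts with CTCF sites, H3K27ac on both sides and no CTCF-free stretch above 3 Mb, drawn to scale from their lower end (Mb); each vertical line is a CTCF summit, with height for fold enrichment, blue when more than 100 kb from H3K27ac and grey when nearer. The top row is the desert on chromosome 13 with 17 sites in 12.3 Mb, where long gaps separate single sites.

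A few deserts were crowded with CTCF. The desert with the most sites was chromosome 14, 106186070 to 107252150, with 50 in the interior and 8 more near the edges in 1.07 Mb. It lies in the region of the immunoglobulin heavy chain genes, whose variable, diversity and joining segments are recombined in developing B cells. Its interior sites had folds from 4.04 to 26.1 with a median of 8.48. A −log10 q of at least 10 was found in 34 of the 50, a smaller share than the 80.5% of all autosomal CTCF peaks. Neighbours were at a median of 14.1 kb and at most 54.5 kb apart. From its lower end to the first CTCF summit there were 225 kb. The local background was at the lowest level in the median, 2.18 fragments.

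Density was examined in deserts with 10 or more sites, a ranking chosen after the values were seen. The 10 densest held 212 sites, 2.87% of the total, at median spacings between 4.25 and 19.7 kb. Of these, 5 overlap regions of antigen receptor genes, by general knowledge of the map. The regions are the heavy chain region just described and those of the T cell receptor alpha, beta and gamma and the immunoglobulin lambda genes. The members of these families rearrange in lymphocytes, and CTCF binding among variable segments is known from lymphoid cells. No test of enrichment was made.

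The T cell receptor alpha region, chromosome 14, 22137344 to 22757767, held 24 interior sites in 620 kb, 57.1 per Mb of interior. Their folds ranged from 4.30 to 28.4 with a median of 15.1, the highest median of the 10 densest deserts. The desert that overlaps the beta region, chromosome 7, 141438904 to 142506013, held 27 sites with a median fold of 10.0 (range 4.32 to 20.9). Its median spacing was 14.7 kb. In the desert that overlaps the gamma region, chromosome 7, 38237750 to 38925939, 17 sites had a median fold of 10.7 (range 3.09 to 22.8). Their median spacing was 4.74 kb. Which sites of the beta and gamma deserts lie among the receptor genes was not determined. The desert with part of the lambda region, chromosome 22, 22981494 to 23522165, had 13 interior sites with a median fold of 14.9, and a further 13 within 100 kb of its edges. All 13 interior sites had a −log10 q of at least 10, against 80.5% of all autosomal CTCF peaks. These deserts were picked by their density of sites. The median fold was above the 8.57 of all desert sites in 4 of these 5, and also in 4 of the other 5 densest deserts.

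The densest desert with 10 or more sites was chromosome 19, 48293156 to 48613210, where 15 interior sites stood at 125 per Mb with a median spacing of 4.25 kb and a median fold of 10.8. Its median local background was 5.00 fragments, above the 2.77 of desert sites in general. Chromosome 1, 152276772 to 153281944, held 26 sites with a median fold of 10.1 (range 3.01 to 24.2). This is the region of the epidermal differentiation complex, a cluster of genes for proteins of the cornified skin layer such as filaggrin and the late cornified envelope proteins. Chromosome 12, 54813830 to 55327389, had 16 sites at 51.0 per Mb with a median fold of 11.4. On chromosome 16, 81813264 to 82203003, 11 sites had a lower median fold, 7.74, with 1 at 30.4.

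**Figure D5:**
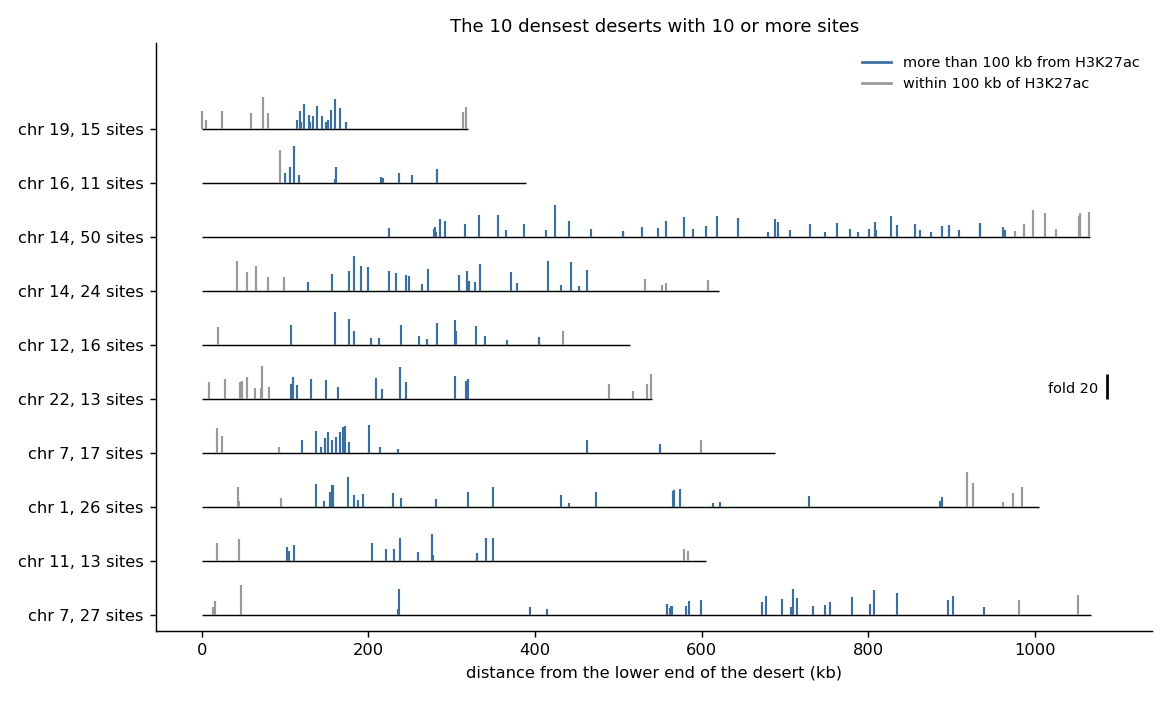
The 10 densest deserts with 10 or more CTCF sites, drawn to scale from their lower end (kb); vertical lines are CTCF summits, with height for fold enrichment, blue when more than 100 kb from H3K27ac and grey when nearer. The rows with 50 and 24 sites on chromosome 14 carry sites along most of their length, while the 15 sites on chromosome 19 form 1 group.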

How the data were processed

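The CTCF and the H3K27ac peak list of DU145 were used, and the inputs were not analysed here. The tools named are Bowtie and MACS2 and the build is hg19, per the submitters' processing notes. Aligner and caller versions: not given in the sources used here. For each peak the authors deposited start, end and summit offset, a score (the whole part of 10 times the −log10 q), a fold ratio, and both p-value and q-value as −log10. Neither list repeats a row (0 repeats among 36152 CTCF and 50364 H3K27ac peaks). Fold was used within the CTCF or the H3K27ac list only.

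Overlapping H3K27ac peaks were merged, and distance ran from the CTCF summit to the nearest merged edge. A chromosome was taken to end at the outermost peak. Fragments and background per summit were solved from deposited fold and −log10 p, with a tolerance of 0.002 on −log10 p. Fold was taken as scaled fragments plus 1 over background plus 1, with a fragment scale of 0.911. Fragments are given before scaling and background after it. This solved 100% of CTCF peaks, and 0.333% of 300 peaks at a scale 3% off. Intervals are Wilson (shares), exact Poisson (counts) or order-statistic (medians), at 95%. Overlap means at least 1 shared base. Positions count from 1. Calculations used Python 3.11.15, numpy 2.4.6, pandas 2.3.3 and scipy 1.17.1, tested on simulated peak lists.

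Named were the 10 longest deserts with sites, the 10 with most sites, the 10 strongest sites, the 5 farthest, and the 3 on either side of the distance limit. Of these, those that differ most are described. The 10 densest, and the longest without a CTCF-free stretch above 3 Mb, were added after the values were seen. The sites and rules were chosen with earlier results of these data known. Gene lists and motif searches that had been planned need an hg19 annotation or genome and were not run.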

Additional observations from a re-analysis of the deposited data

Results flagged for a closer look

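Chromosome X was outside the rule. By the same distance limit it had 296 of 809 CTCF peaks more than 100 kb from H3K27ac, 36.6% (Wilson 95% interval 33.3 to 39.96). This was a larger share than on any of the 22 autosomes, the highest of which was 33.9% on chromosome 4. The interval overlapped that of chromosome 4 (31.5 to 36.3). The median fold enrichment of the 296 peaks was 6.61 against 7.47 for the other CTCF peaks of chromosome X. The lowest local background was found at 87.8% of the 296 peaks, against 37.6% of autosomal desert sites and 29.4% of all autosomal CTCF peaks. The share at the other CTCF peaks of chromosome X is not given here, so it may hold for the whole chromosome. The part of background in the result was not tested. This was listed because it is a signal in rows that no comparison above uses.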

How the results depend on the processing

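No paired analysis was possible because each group has 1 library. Of 70 alternatives, 32 stayed within the interval of the reported value, or within 1.5 times a count. With a distance of 50 kb there were 11773 sites (33.9% of autosomal CTCF) in 3073 deserts, 6.63 per Mb, at a spacing of 43.2 kb and a relative position of 0.293, with median fold 8.90, width 264 and background 2.93. With 200 kb there were 3994 sites (11.5%) in 887 deserts, 3.64 per Mb, at 71.0 kb and 0.323, with fold 8.04, width 255 and background 2.56. CTCF peaks with a −log10 q of 10 or more gave a share of 19.99%, 3.91 per Mb, 61.9 kb, fold 10.1, width 284 and background 2.93. H3K27ac peaks with a −log10 q of 10 or more gave 28.7%, 6.11 per Mb, 48.6 kb, width 264 and background 2.93. Deserts bounded on both sides gave 5.48 per Mb. Deserts without a CTCF-free stretch over 3 Mb, a setting added after the data were seen, gave 20.8% and 6.08 per Mb. That setting leaves out deserts for their lack of CTCF, which by itself raises the density. Peaks at the lowest local background, also added after the data were seen, gave 2781 sites (27.2%) in 956 deserts. They gave 1.94 per Mb, 92.6 kb and 0.294, and hold fewer peaks by construction. Desert sites had the lower median fold in each of the 6 alternatives in which both sets were compared, among them 10.1 against 11.8 with strict CTCF peaks. With as few as 10 fragments at a summit, weak peaks cannot be ranked closely.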
